A study of Mus musculus with 6 samples.

Results

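Chromatin and DNA methylation regulators are the enzymes and remodelling proteins that add, remove, read or move the chemical marks and nucleosomes that package DNA. The set was drawn by name from the protein-coding rows of the deposited count table. It took every gene whose symbol starts with Kdm, Kmt, Hdac, Smarc or Setd, every Sirt, Chd, Tet, Brd, Prmt or Kat gene with a number, and Dnmt1, Dnmt3a, Dnmt3b, Ezh1, Ezh2, Eed, Suz12, Ep300 and Crebbp. This gave 109 of 21017 genes, of which 107 passed the filter on low counts and were tested. A symbol rule also admits genes with other main roles, such as Setd3, which methylates actin, the mitochondrial sirtuins Sirt3, Sirt4 and Sirt5, and Chd3os, a gene named for lying opposite Chd3. All of them are counted here.

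The data are RNA sequencing of group 2 innate lymphoid cells (ILC2s), lymphocytes of tissues that lack rearranged antigen receptors and secrete type 2 cytokines. All cells came from lungs of C57BL/6J mice aged 8 weeks that carried the IL-10GFP reporter allele, in which green fluorescence marks cells that express the anti-inflammatory cytokine IL-10. All mice had received 3 intranasal doses of recombinant mouse IL-33 (0.5 µg each), an alarmin that activates ILC2s, and all sorted ILC2s were then kept in culture for 48 h, with 10 ng/mL each of IL-4, IL-7 and IL-2. A second sort gave IL-10-producing ILC2s (3 libraries, the producers) and IL-10-negative ILC2s (3 libraries, the negative cells), each made from 10 ng of RNA. The labels name no separate mice or cultures for the libraries, so the p-values rest on a spread among libraries that may be technical only. The question is which transcripts set the IL-10 producers apart from the other activated ILC2s.

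Chromatin marks work as opposed pairs of writers and erasers. DNA methyltransferases put methyl groups on cytosine and TET enzymes oxidise them, lysine methyltransferases and demethylases act on histone tails, and acetyltransferases and deacetylases set the acetylation that bromodomain proteins read. Polycomb repressive complex 2 (PRC2) lays down a repressive methyl mark, COMPASS-type complexes mark active promoters and enhancers, and the SWI/SNF, ISWI and CHD families slide or evict nucleosomes with energy from ATP. In lymphocytes these proteins hold cytokine loci open or closed, and cells in cycle copy their marks at each division.

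Library totals ran from 47012941 to 69511433 estimated counts, and the members held 1.06% to 1.07% of them in IL-10-producing libraries and 1.10% to 1.11% in IL-10-negative libraries. Il10, on whose reporter the cells were sorted, averaged 848 ± 7.78 CPM in the producers and 13.5 ± 0.608 CPM in the negative cells (SD, n = 3 each), which checks the labels. Levels in CPM are gene counts relative to the library total, scaled by TMM factors, and means stand with the SD over the 3 libraries of a group. Of 12 ILC2 markers 4 rose and 7 fell, and their sum was 15492 to 15632 CPM in the producers, against 14700 to 14845 CPM in the negative cells. Other lists moved with the groups. Proliferation markers were higher (15 of 16 rose, sums of 6652 to 6702 CPM in producers against 5304 to 5354 CPM in negative cells). T-cell markers were lower (14 of 14 fell, 322 to 326 CPM in producers against 454 to 460 CPM in negative cells), with Cd8a at 0.0594 CPM in producers against 15.3 CPM in negative cells. Markers of mast cells, basophils and neutrophils were lower too (11 of 11 fell, 12.9 to 15.1 CPM in producers against 100.1 to 105.6 CPM in negative cells), and NK-cell markers summed to 5.90 to 6.95 CPM in producers against 14.9 to 15.9 CPM in negative cells (1 of 5 rose and 4 fell). In B-cell markers 5 of 6 fell (15.95 to 17.6 CPM in producers against 17.4 to 18.2 CPM in negative cells), and in those of macrophages and dendritic cells 1 of 7 rose and 3 fell (61.9 to 63.9 CPM in producers against 65.9 to 68.0 CPM in negative cells). Markers of epithelial, endothelial and stromal cells showed 1 of 4 higher and 2 lower (119 to 125 CPM in producers against 105 to 113 CPM in negative cells). The part of these differences in the results below was not tested. In bulk samples fewer cells of a type and less RNA per cell cannot be told apart.

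Most members differed by little between the populations, and 46 of 107 passed the quasi-likelihood F test of edgeR at a Benjamini-Hochberg adjusted p of 0.05. The 16 that rose in IL-10-producing cells include Dnmt1, the PRC2 subunits Ezh2, Eed and Suz12, and the remodelling subunits Smarca5 and Smarcc1. The 30 that fell include Kmt2a to Kmt2e, Setd1a and Setd1b of the H3K4 methyltransferase families, 9 lysine demethylases, and Smarca2. Over all genes tested, the same test called 35.7%, with 17.1% higher and 18.6% lower, so the members' 43% had 15% higher and 28% lower. Members are well expressed, with 96 of the 107 at 10 CPM or more in the higher group. Among all genes at that level 49.3% were called, 25.9% higher and 23.4% lower, against 46.9% of the 96 members, 15.6% higher and 31.2% lower, so the total share called is near the background. By role the share called was 14.3% for arginine methyltransferases, 23.5% for deacetylases and sirtuins, 25% for Smarc genes and 28.6% for bromodomain proteins. It was 45.5% for CHD remodellers, 50% for DNA methylation genes, 50% for demethylases, 55.6% for acetyltransferases, 62.5% for lysine methyltransferases and 100% for the PRC2 core. The libraries of the groups did not overlap in 19 of the 107 members that were higher and 36 that were lower, where 45.2% of all genes tested had no overlap (21.7% higher, 23.5% lower). That share is over genes of all levels and is not matched to the level of the members. Changes were small. Median absolute log2 fold changes were 0.14 among members that rose and 0.17 among those that fell. Of the called members 0 changed 2-fold, beside 610 of the 5943 called among all genes. A change of 1.5-fold or more passed in 1 member (Tet1, under 10 CPM) and in 6.68% of all genes tested. At 10 CPM or more it passed in 0 of 96 members and in 2.73% of all genes. When glmTreat asked for more than a 1.2-fold change, 2 members passed, Tet1 and Kdm7a. They are 1.87% of the tested members, where 7.91% of all genes tested passed (1317 of 16654).

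The balance of rises and falls depended on scaling. With TMM factors 16 members rose and 30 fell, with library size only 8 and 39, and with GC content and transcript length corrected for 23 and 24. In that order, 47.8%, 36.8% and 51.0% of all called genes were higher. All 8 members that rose with library size only were among the 16. The median log2 fold change of the tested members was -0.03 with TMM, -0.06 with library size only and 0.00039 with the correction, beside -0.0038 over all genes with TMM. Over all genes the median with library size only was -0.03. No called member changed direction under any of these scalings. Of the 46, 30 kept their call in all 15 alternatives other than the 1.2-fold test. They were 8 of the 16 that rose (Dnmt1, Tet1, Eed, Ezh2, Suz12, Hdac2, Smarca5 and Smarcc1) and 22 of the 30 that fell.

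**Figure D1:**
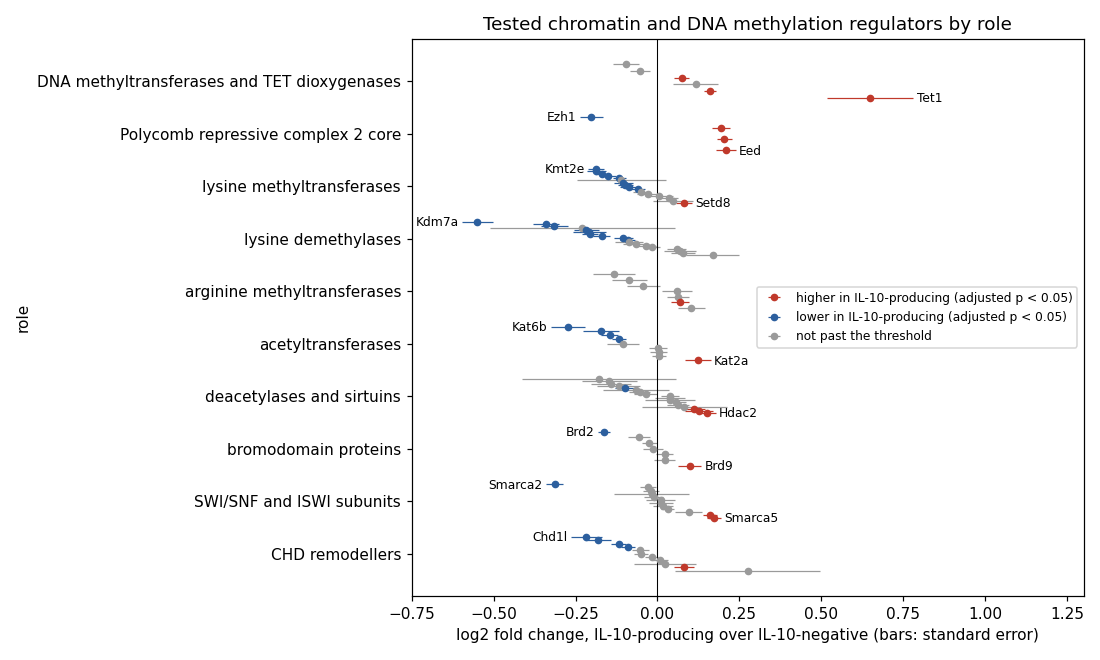
Log2 fold change of each of the 107 tested members, IL-10-producing over IL-10-negative, by role (rows), with bars for the standard error of the fit. Red points are the 16 that rose, blue points the 30 that fell and grey points those not past the threshold. Tet1 and Kdm7a lie farthest from 0, and the lysine methyltransferases and demethylases that passed lie mostly to the left.

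Among DNA methylation genes, 3 of 6 rose and 0 fell in edgeR's test, and 1 was lower at an unadjusted p under 0.05, and 0 by DESeq2 or limma-voom. The share called, 50%, is near the 49.3% called among all genes at 10 CPM or more. Dnmt1, the maintenance methyltransferase that copies methylation after replication (ENSMUSG00000004099.16, chromosome 9, 20907209 to 20959888), had 535, 537 and 523 CPM in IL-10-producing libraries, against 472, 475 and 481 CPM in IL-10-negative libraries. The IL-10-producing libraries were all above the IL-10-negative ones, and the level was 1.12-fold that of the negative cells (log2 fold change 0.16, SE 0.019, adjusted p = 1.38e-07). Per kilobase of longest transcript the level of Dnmt1 was 90.6 CPM per kb in producers and 81.1 CPM per kb in negative cells. Brd2 had 87.7 CPM per kb in producers and 98.2 CPM per kb in negative cells, and by the mean on that scale Dnmt1 had rank 2 of the 109 members, behind Brd2. The de novo methyltransferase genes did not pass. Dnmt3a (ENSMUSG00000020661.15, chromosome 12, 3806007 to 3914443) had 66.1, 64.7 and 64.8 CPM in IL-10-producing libraries, against 66.9, 69.3 and 66.6 CPM in IL-10-negative libraries, and its groups did not overlap although the difference missed the threshold (log2 fold change -0.05, SE 0.031, adjusted p = 0.196). It passed, as lower, with library size only (adjusted p = 0.0364). Dnmt3b was low, with 13.03, 12.2 and 11.8 CPM in IL-10-producing libraries, against 11.9, 10.9 and 11.4 CPM in IL-10-negative libraries, and its groups overlapped (log2 fold change 0.12, SE 0.068, adjusted p = 0.199).

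The TET dioxygenases, which oxidise methylcytosine toward its removal, did not move alike. Tet1 (ENSMUSG00000047146.17, chromosome 10, 62804570 to 62908996) was the member with the largest rise and one of low level, with 5.19, 4.57 and 5.30 CPM in IL-10-producing libraries, against 3.86, 3.23 and 2.51 CPM in IL-10-negative libraries. Its groups did not overlap, and its 840 counts over the IL-10-producing libraries against 530 over the IL-10-negative ones gave a 1.57-fold higher level (log2 fold change 0.65, SE 0.13, adjusted p = 3.06e-04). It was past the threshold in all 16 alternatives, with log2 fold changes from 0.50 to 0.80. Tet3 (ENSMUSG00000034832.15, chromosome 6, 83362373 to 83459084), the TET gene with the most counts, had 135, 137 and 133 CPM in IL-10-producing libraries, against 128, 127 and 129 CPM in IL-10-negative libraries. The level was 1.05-fold that of the negative cells (log2 fold change 0.07, SE 0.024, adjusted p = 0.0174), and the call was lost when library size alone scaled the counts (adjusted p = 0.162) and without IL-10-producing replicate 1 (adjusted p = 0.0509), IL-10-producing replicate 2 (0.0666) or IL-10-negative replicate 2 (0.0599). Tet2 (ENSMUSG00000040943.12, chromosome 3, 133463679 to 133545139), a tumour suppressor of blood cells, had 46.3, 44.02 and 44.96 CPM in IL-10-producing libraries, against 45.7, 49.1 and 49.6 CPM in IL-10-negative libraries. Its groups overlapped and it did not pass (log2 fold change -0.10, SE 0.039, adjusted p = 0.0579), but it passed as lower with library size only (adjusted p = 0.0132), with at least 50 counts in 3 libraries (adjusted p = 0.0478) and without IL-10-negative replicate 1 (adjusted p = 0.0156). 

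All 4 PRC2 core genes passed the test, 3 higher and 1 lower. Ezh2, the catalytic subunit of dividing cells (ENSMUSG00000029687.16, chromosome 6, 47530139 to 47595341), had 193, 193 and 201 CPM in IL-10-producing libraries, against 167, 173 and 170.2 CPM in IL-10-negative libraries (1.15-fold, log2 fold change 0.20, SE 0.023, adjusted p = 1.11e-07). Eed, the subunit that binds the mark PRC2 makes (ENSMUSG00000030619.9, chromosome 7, 89954654 to 89980983), had 102, 103 and 107 CPM in IL-10-producing libraries, against 86.1, 93.3 and 90.5 CPM in IL-10-negative libraries (log2 fold change 0.21, SE 0.030, adjusted p = 3.53e-06). Suz12, the scaffold (ENSMUSG00000017548.15, chromosome 11, 79993106 to 80034123), had 221, 227 and 242 CPM in IL-10-producing libraries, against 197, 202 and 204 CPM in IL-10-negative libraries (log2 fold change 0.19, SE 0.026, adjusted p = 1.66e-06). In each of these genes every IL-10-producing library was above every IL-10-negative one. Ezh1 (ENSMUSG00000006920.14, chromosome 11, 101191115 to 101226463), the alternative catalytic subunit that is less active and found in resting cells, went the other way, with 51.3, 52.9 and 53.04 CPM in IL-10-producing libraries, against 63.2, 58.3 and 59.4 CPM in IL-10-negative libraries, and its groups did not overlap either (log2 fold change -0.20, SE 0.036, adjusted p = 6.35e-05). Each of the 4 calls held in all 15 alternatives other than the 1.2-fold test. Eed, Ezh2 and Suz12 overlap other counted genes that carry only model or clone names, and whether counting used strand is not given in the sources used here. The same limit holds for other roles, since 22 of the 46 called members overlap another counted gene, Kdm7a and Kmt2e among them. In the same libraries 15 of 16 proliferation markers rose, with a median log2 fold change of 0.38, against 0.19 to 0.21 for the rising PRC2 genes and 0.16 for Dnmt1.

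The promoters of these genes are shown because Dnmt1, Ezh2, Eed and Suz12 rose while Ezh1 fell. The sequences are from RefSeq on GRCm38.p6, 250 bases before to 50 after the start of transcription, 5′ to 3′ on the gene's strand. Capitals mark E2F words, the sites of cell-cycle transcription factors, here TTTCCCGC, TTTGGCGC, TTTCGCGC or TTTGCCGC on either strand. For Dnmt1, which has 3 starts in RefSeq, the start with matches is shown, so this window was picked for its matches. In the direction of the gene it lies downstream of the windows of the other starts.
Dnmt1 promoter, chr9:20952574-20952873 (minus strand): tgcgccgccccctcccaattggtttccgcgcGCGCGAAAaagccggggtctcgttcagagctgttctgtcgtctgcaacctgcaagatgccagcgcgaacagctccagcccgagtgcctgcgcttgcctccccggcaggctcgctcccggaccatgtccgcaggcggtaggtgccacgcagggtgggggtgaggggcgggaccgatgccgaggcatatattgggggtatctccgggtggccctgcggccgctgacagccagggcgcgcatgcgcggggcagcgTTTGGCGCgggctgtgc
Ezh2 promoter, chr6:47594981-47595280 (minus strand): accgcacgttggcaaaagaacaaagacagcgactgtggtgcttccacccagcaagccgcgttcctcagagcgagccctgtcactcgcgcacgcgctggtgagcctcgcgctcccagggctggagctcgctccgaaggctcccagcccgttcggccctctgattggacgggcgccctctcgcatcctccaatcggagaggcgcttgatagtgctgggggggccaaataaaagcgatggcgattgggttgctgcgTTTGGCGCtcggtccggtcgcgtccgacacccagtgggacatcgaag
Eed promoter, chr7:89980927-89981226 (minus strand): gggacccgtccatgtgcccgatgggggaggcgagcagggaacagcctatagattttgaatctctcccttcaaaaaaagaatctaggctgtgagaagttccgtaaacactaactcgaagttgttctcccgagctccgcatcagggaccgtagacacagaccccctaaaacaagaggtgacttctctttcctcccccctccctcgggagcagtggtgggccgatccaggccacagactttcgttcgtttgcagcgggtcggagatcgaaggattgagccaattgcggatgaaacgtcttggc
Suz12 promoter, chr11:79992856-79993155 (plus strand): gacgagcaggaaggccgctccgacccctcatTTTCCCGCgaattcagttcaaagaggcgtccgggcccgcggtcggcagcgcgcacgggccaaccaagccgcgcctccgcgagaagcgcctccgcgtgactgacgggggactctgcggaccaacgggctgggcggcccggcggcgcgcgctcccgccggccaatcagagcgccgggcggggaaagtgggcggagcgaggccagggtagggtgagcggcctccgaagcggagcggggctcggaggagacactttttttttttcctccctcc
Ezh1 promoter, chr11:101226414-101226713 (minus strand): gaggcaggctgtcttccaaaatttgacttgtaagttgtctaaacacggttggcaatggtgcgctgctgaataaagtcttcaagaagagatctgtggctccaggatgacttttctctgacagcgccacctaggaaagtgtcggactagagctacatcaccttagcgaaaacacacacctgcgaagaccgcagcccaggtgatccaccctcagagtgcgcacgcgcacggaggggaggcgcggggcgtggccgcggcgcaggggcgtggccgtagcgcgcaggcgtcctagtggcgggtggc
The Dnmt1 promoter shown held 2 of these words, which do not overlap, and the windows of its other RefSeq starts held 0. The promoters of Ezh2 and Suz12 held 1 each, and those of Eed and Ezh1 held none. Of 32851 RefSeq promoters of the same length 2.26% held such a word. The words are rich in G and C, and the median GC content was 65.7% in promoters of the members that rose, 62.8% in those of the members that fell and 62.7% in those of all members, against 52.7% in all promoters, so 2.26% is not a share matched on base composition. Promoters were found for 89 of the 109 members. A word stood in 4 of 23 promoters of the members that rose (in Dnmt1, Ezh2, Suz12 and Kat2a), in 0 of 26 of those that fell and in 3 of 67 of those not past the threshold. These are counts of windows, and some genes have several starts. The windows cover 15 of the 16 members that rose but only 20 of the 30 that fell, and 52 of the 61 not past the threshold. The shares by call are therefore not of equally covered groups. A match is a description of the letters in this window.

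**Figure D2:**
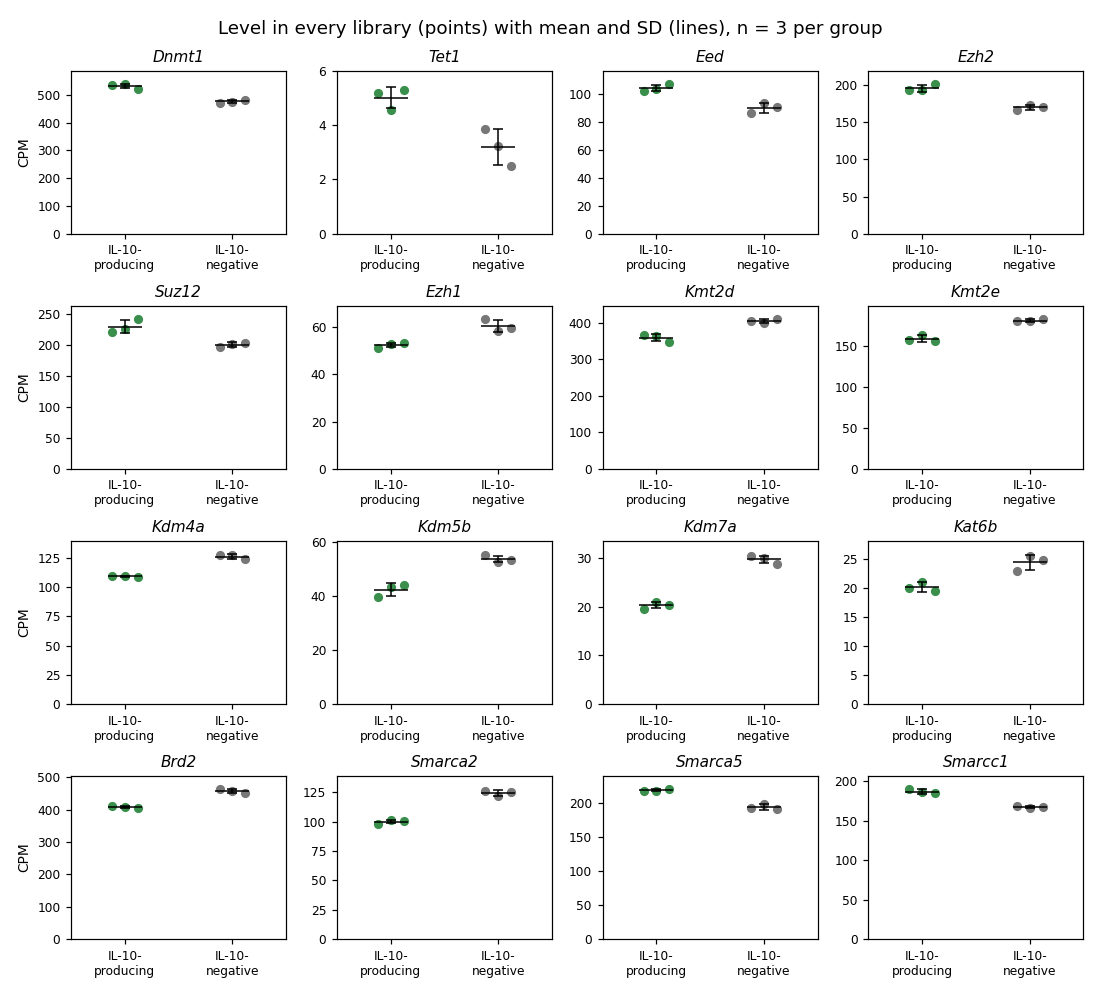
Level in CPM (vertical axis from 0) of 16 members in each of 3 IL-10-producing (left, green) and 3 IL-10-negative (right, grey) libraries, with the mean and SD as lines. Points of the groups do not overlap in any of the 16 panels, and the difference is under 1.5-fold in all but Tet1.

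Lysine methyltransferase genes moved mainly down: 9 of 16 fell and 1 rose (median log2 fold change -0.09). Of all genes at 10 CPM or more 23.4% fell and 25.9% rose. Kmt2a, Kmt2b, Kmt2c, Kmt2d, Setd1a and Setd1b encode the catalytic subunits of COMPASS-type complexes, which methylate H3K4 at promoters and enhancers, and all of them fell, as did Kmt2e, which is grouped with them by sequence. Kmt2d (ENSMUSG00000048154.17, chromosome 15, 98831669 to 98871204), which acts at enhancers, had 367, 363 and 348 CPM in IL-10-producing libraries, against 405, 399 and 411 CPM in IL-10-negative libraries, and the groups did not overlap (log2 fold change -0.17, SE 0.021, adjusted p = 3.56e-07). Kmt2e (ENSMUSG00000029004.15, chromosome 5, 23434441 to 23504235) had 157, 164 and 156 CPM in IL-10-producing libraries, against 179.9, 180.3 and 183 CPM in IL-10-negative libraries (log2 fold change -0.19, SE 0.023, adjusted p = 4.29e-07). Setd1b (ENSMUSG00000038384.16, chromosome 5, 123142193 to 123168629) had 82.01, 83.01 and 78.7 CPM in IL-10-producing libraries, against 92.4, 91.3 and 93.9 CPM in IL-10-negative libraries (log2 fold change -0.19, SE 0.029, adjusted p = 9.26e-06). Log2 fold changes of the remaining COMPASS catalytic subunit genes were -0.12 for Kmt2a, -0.09 for Kmt2b, -0.15 for Kmt2c and -0.10 for Setd1a. Setd2, which methylates H3K36 along transcribed genes, fell to 136 ± 1.44 CPM, against 146 ± 0.593 CPM in IL-10-negative libraries, and Setd5 fell by 0.06 on the log2 scale. The gene that rose was Setd8, which encodes the H4K20 methyltransferase of the cell cycle, at 134 ± 1.31 CPM in producers against 127 ± 1.33 CPM in negative cells (log2 fold change 0.08, SE 0.024, adjusted p = 0.00875), a call not kept with library size only (adjusted p = 0.0980). Setd3, Setd4, Setd6, Setd7, Setdb1 and Setdb2 did not pass, with log2 fold changes from -0.11 to 0.05. Setd7 was called lower with library size only (adjusted p = 0.00719). Setdb1, a writer of the H3K9 mark of heterochromatin, was at 72.3 ± 1.83 CPM in producers and 73.8 ± 2.11 CPM in negative cells.

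With the GC and length correction 1 of these 16 genes rose and 6 fell. Kmt2b (adjusted p = 0.490), Setd1a (0.166) and Setd5 (0.446) were the calls lost, and the log2 fold change of Kmt2d went to -0.09 and that of Kmt2a to -0.06. Some of the weaker calls were lost when a library was left out, which also leaves fewer libraries to test. Calls over all genes then went from 5943 to between 5232 and 5519. Kmt2b was lost without IL-10-producing replicate 3 (adjusted p = 0.0539) or IL-10-negative replicate 3 (0.0686), Setd1a without IL-10-negative replicate 3 (adjusted p = 0.0812), and Setd5 without IL-10-producing replicate 1 (adjusted p = 0.156), IL-10-producing replicate 3 (0.0594) or IL-10-negative replicate 3 (0.211).

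Of 18 lysine demethylase genes 0 rose and 9 fell in edgeR's test (median log2 fold change -0.10), and 2 were higher at an unadjusted p under 0.05, and 0 by DESeq2 or limma-voom. The share lower was 50%, where 23.4% of all genes at 10 CPM or more fell and 25.9% rose. Kdm7a (ENSMUSG00000042599.8, chromosome 6, 39136623 to 39206789), which removes methyl groups from H3K9 and H3K27, had 19.6, 20.9 and 20.3 CPM in IL-10-producing libraries, against 30.4, 29.97 and 28.9 CPM in IL-10-negative libraries. This was the largest fall of any tested member, 1.46-fold lower with no overlap between groups (log2 fold change -0.55, SE 0.048, adjusted p = 9.22e-10), and it passed in all 16 alternatives. Kdm5b (ENSMUSG00000042207.17, chromosome 1, 134560171 to 134635285), an eraser of the H3K4 mark, had 39.8, 43.5 and 44.04 CPM in IL-10-producing libraries, against 55.2, 52.7 and 53.4 CPM in IL-10-negative libraries (log2 fold change -0.34, SE 0.040, adjusted p = 1.48e-07). Kdm4a (ENSMUSG00000033326.15, chromosome 4, 118136957 to 118180043), an eraser of H3K9 and H3K36 marks, had 109, 109.7 and 109 CPM in IL-10-producing libraries, against 128, 127 and 124 CPM in IL-10-negative libraries (log2 fold change -0.21, SE 0.025, adjusted p = 2.09e-07). The H3K27 erasers Kdm6a and Kdm6b, which oppose PRC2, were lower as well. Kdm6a (also called Utx) was at 47.1 ± 0.967 CPM in producers against 54.8 ± 2.53 CPM in negative cells, and Kdm6b (Jmjd3) at 31.1 ± 2.49 CPM in producers against 36.0 ± 1.16 CPM in negative cells. Kdm4b fell by 0.31, Kdm3b by 0.17, Kdm3a by 0.10 and Kdm2a by 0.09 on the log2 scale. Kdm3a was lost without IL-10-producing replicate 2 (adjusted p = 0.0746), and Kdm2a with the GC and length correction (adjusted p = 0.0580).

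Of the 9 demethylase genes that did not pass, Kdm1a (Lsd1) was at 80.5 ± 1.75 CPM in producers and 82.4 ± 1.36 CPM in negative cells, and Kdm5a at 152 ± 3.98 CPM in producers and 154 ± 4.29 CPM in negative cells. The X-linked Kdm5c and its Y-linked relative Kdm5d were measured in every library, Kdm5d at 30.7 to 31.2 CPM in producers and 32.1 to 34.5 CPM in negative cells. These groups did not overlap, and Kdm5d, which did not pass (log2 fold change -0.09, adjusted p = 0.126), was called lower with library size only (adjusted p = 0.0364). Kdm5c did not pass (log2 fold change 0.06, SE 0.029, adjusted p = 0.118), but it passed as higher without IL-10-negative replicate 3 (adjusted p = 0.00299) and with the GC and length correction (adjusted p = 0.00335). Kdm2b likewise passed as higher without IL-10-producing replicate 2 (adjusted p = 0.0497) or IL-10-negative replicate 1 (0.0330) and with the correction (adjusted p = 0.0127), and Kdm8 without IL-10-producing replicate 1 (adjusted p = 0.0183). Kdm4d stayed under 1 CPM in both groups.

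Of 7 arginine methyltransferase genes 1 was higher and 0 lower in edgeR's test; 1 was lower at an unadjusted p under 0.05, and 0 by DESeq2 or limma-voom. Prmt1 (ENSMUSG00000109324.2, chromosome 7, 44975989 to 44986568), the main enzyme of asymmetric arginine dimethylation, had 106, 106 and 101 CPM in IL-10-producing libraries, against 98.1, 99.1 and 101 CPM in IL-10-negative libraries. Its difference was 1.05-fold and at the edge of the threshold (log2 fold change 0.07, SE 0.027, adjusted p = 0.0493), and it was lost under 10 of 16 alternatives, among them DESeq2 (adjusted p = 0.0577) and without IL-10-producing replicate 1 (adjusted p = 0.158), IL-10-producing replicate 2 (0.148), IL-10-negative replicate 1 (0.157), IL-10-negative replicate 2 (0.112) or IL-10-negative replicate 3 (0.0525). Prmt5, of symmetric dimethylation, was at 63.0 ± 1.83 CPM in producers and 60.4 ± 1.43 CPM in negative cells and did not pass (log2 fold change 0.06, SE 0.033, adjusted p = 0.158). With the GC and length correction 3 of the 7 rose, with Prmt5 (adjusted p = 0.0407) and Prmt7 (0.0114) added. Prmt7, at a log2 fold change of 0.10 with no overlap between groups, missed the threshold with TMM factors (adjusted p = 0.0568) and passed as higher in 4 of the alternatives. Prmt6 was called lower without IL-10-negative replicate 3 (adjusted p = 0.00592). The other members of the group had log2 fold changes between -0.13 and 0.10.

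Acetyltransferase genes fell more often than they rose, with 1 of 9 higher and 4 lower (median log2 fold change -0.11). The share called, 55.6%, is near the 49.3% called among all genes at 10 CPM or more (25.9% higher, 23.4% lower). The paralogs Ep300 and Crebbp, broad acetyltransferases of enhancers, parted. Crebbp (ENSMUSG00000022521.10, chromosome 16, 4081328 to 4213997) had 114, 113 and 110.2 CPM in IL-10-producing libraries, against 124, 123 and 126 CPM in IL-10-negative libraries, with no overlap (log2 fold change -0.15, SE 0.025, adjusted p = 3.95e-05). Ep300 (ENSMUSG00000055024.12, chromosome 15, 81585351 to 81652077) had 242, 238 and 235 CPM in IL-10-producing libraries, against 236, 238 and 239 CPM in IL-10-negative libraries, with overlapping groups (log2 fold change 0.00, SE 0.020, adjusted p = 0.901), though it passed as higher with the GC and length correction (log2 fold change 0.05, adjusted p = 0.0221). The related Kat6a and Kat6b, which acetylate H3K23, both fell. Kat6a (ENSMUSG00000031540.13, chromosome 8, 22859535 to 22943259) had 188, 194 and 188 CPM in IL-10-producing libraries, against 207, 206 and 206 CPM in IL-10-negative libraries (log2 fold change -0.12, SE 0.021, adjusted p = 7.99e-05). Kat6b (ENSMUSG00000021767.18, chromosome 14, 21481434 to 21672478) had 20.02, 21.03 and 19.4 CPM in IL-10-producing libraries, against 22.9, 25.5 and 24.8 CPM in IL-10-negative libraries (log2 fold change -0.27, SE 0.053, adjusted p = 1.90e-04). In both genes the IL-10-producing libraries were below all IL-10-negative ones. Kat8, the H4K16 acetyltransferase, was at 15.4 ± 0.245 CPM in producers against 17.3 ± 0.358 CPM in negative cells and was lost without IL-10-producing replicate 2 (adjusted p = 0.0633) or IL-10-negative replicate 3 (0.0622). Kat2a (Gcn5), at 43.3 ± 0.557 CPM in producers against 39.8 ± 1.31 CPM in negative cells, rose (log2 fold change 0.12, SE 0.038, adjusted p = 0.0135). It did not pass with library size only (adjusted p = 0.0616) and without IL-10-negative replicate 2 (adjusted p = 0.0856). Kat2b (Pcaf), the paralog of Kat2a, was at 93.8 ± 0.781 CPM in producers and 93.8 ± 1.89 CPM in negative cells. Kat5 did not pass (log2 fold change -0.11) but was called lower with library size only (adjusted p = 0.0304).

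Of 17 tested deacetylase and sirtuin genes 3 rose and 1 fell. Hdac2 (ENSMUSG00000019777.16, chromosome 10, 36974544 to 37001889), a class I enzyme of the NuRD, Sin3 and CoREST corepressors, had 84.3, 83.9 and 85.4 CPM in IL-10-producing libraries, against 76.3, 74.9 and 77.3 CPM in IL-10-negative libraries, with no overlap (log2 fold change 0.15, SE 0.028, adjusted p = 1.27e-04). Its partner Hdac1 was at 84.8 ± 1.13 CPM in producers and 81.4 ± 1.97 CPM in negative cells and did not pass (log2 fold change 0.06, SE 0.029, adjusted p = 0.126). Hdac7 (ENSMUSG00000022475.19, chromosome 15, 97792664 to 97844502), a class IIa enzyme of lymphocytes, had 85.6, 81.4 and 79.99 CPM in IL-10-producing libraries, against 79.8, 75.5 and 73.5 CPM in IL-10-negative libraries (log2 fold change 0.11, SE 0.033, adjusted p = 0.0105). It was lost when library size alone scaled the counts (adjusted p = 0.0652) and without IL-10-producing replicate 1 (adjusted p = 0.0843) or IL-10-negative replicate 3 (0.0807). Sirt1 was at 48.1 ± 2.83 CPM in producers against 43.9 ± 2.02 CPM in negative cells, and its groups overlapped although it passed (log2 fold change 0.13, SE 0.044, adjusted p = 0.0249). It was lost when library size alone scaled the counts (adjusted p = 0.100) and without IL-10-producing replicate 1 (adjusted p = 0.0913), IL-10-producing replicate 3 (0.113), IL-10-negative replicate 1 (0.0628) or IL-10-negative replicate 3 (0.137). Sirt7 (ENSMUSG00000025138.14, chromosome 11, 120618372 to 120625240), a nucleolar sirtuin, had 81.3, 82.3 and 77.7 CPM in IL-10-producing libraries, against 86.5, 85.5 and 86.97 CPM in IL-10-negative libraries (log2 fold change -0.10, SE 0.029, adjusted p = 0.00824). It was lost with the GC and length correction (adjusted p = 0.0597) and without IL-10-producing replicate 3 (adjusted p = 0.0641). Hdac3, Hdac4, Hdac5, Hdac6, Hdac8, Hdac10, Hdac11 and Sirt2 to Sirt6 did not pass, with log2 fold changes from -0.18 to 0.08, and Sirt6 was called lower without IL-10-negative replicate 2 (adjusted p = 0.0277). With library size only Sirt2 (0.0423) and Sirt6 (0.0277) were called lower, and with the GC and length correction Hdac4 (0.00998) was called higher (adjusted p in parentheses). Hdac9 was not tested, at 0 to 0.267 CPM.

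Bromodomain genes split, with 1 of 7 higher and 1 lower. Brd2 (ENSMUSG00000024335.19, chromosome 17, 34112023 to 34122634), a reader of acetylated histones of the BET family, had 412, 408 and 404 CPM in IL-10-producing libraries, against 462, 459 and 450.2 CPM in IL-10-negative libraries, and every IL-10-producing library was below every IL-10-negative one (log2 fold change -0.16, SE 0.019, adjusted p = 1.30e-07). Brd3, of the same family, was at 62.3 ± 1.17 CPM in producers and 61.4 ± 1.10 CPM in negative cells and did not pass. Brd9 (ENSMUSG00000057649.6, chromosome 13, 73937811 to 73960895), a subunit of the non-canonical SWI/SNF complex, had 58.9, 62.9 and 62.6 CPM in IL-10-producing libraries, against 60.03, 56.01 and 56.4 CPM in IL-10-negative libraries. The groups overlapped (log2 fold change 0.10, SE 0.036, adjusted p = 0.0357), and it did not pass with library size only (adjusted p = 0.161) and without IL-10-producing replicate 2 (adjusted p = 0.135), IL-10-producing replicate 3 (0.0872), IL-10-negative replicate 2 (0.150) or IL-10-negative replicate 3 (0.125).

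Among the genes with Smarc symbols, mostly of the SWI/SNF and ISWI families, 2 of 12 tested members rose and 1 fell. The ATPase genes differed from each other. Smarca2 (Brm; ENSMUSG00000024921.17, chromosome 19, 26605050 to 26778322) had 98.4, 101 and 101 CPM in IL-10-producing libraries, against 127, 122 and 125 CPM in IL-10-negative libraries, 1.24-fold lower with no overlap (log2 fold change -0.31, SE 0.026, adjusted p = 3.34e-10). Its alternative in the complex, Smarca4 (Brg1; ENSMUSG00000032187.16, chromosome 9, 21616169 to 21704230), was at 276 ± 5.32 CPM in producers and 271 ± 2.00 CPM in negative cells and did not pass (log2 fold change 0.03, SE 0.021, adjusted p = 0.272), though it passed as higher with the GC and length correction (log2 fold change 0.08, adjusted p = 0.00123). Smarca5 (ENSMUSG00000031715.14, chromosome 8, 80698507 to 80739497), the ISWI ATPase, had 218, 218 and 220.2 CPM in IL-10-producing libraries, against 192, 199 and 191 CPM in IL-10-negative libraries (log2 fold change 0.17, SE 0.022, adjusted p = 5.26e-07). The core subunit Smarcc1 (ENSMUSG00000032481.17, chromosome 9, 110117708 to 110240178) had 189.8, 186 and 185 CPM in IL-10-producing libraries, against 168, 166 and 167 CPM in IL-10-negative libraries (log2 fold change 0.16, SE 0.022, adjusted p = 1.76e-06), and its paralog Smarcc2 was at 199.6 ± 5.35 CPM in producers and 202 ± 4.16 CPM in negative cells and did not pass. In Smarca5 and Smarcc1 all IL-10-producing libraries were above the IL-10-negative ones. The other tested genes with Smarc symbols, not all of them subunits of these complexes, did not pass (log2 fold changes from -0.03 to 0.10). Of these, Smarcad1 passed as higher without IL-10-producing replicate 2 (adjusted p = 0.0215) and with the authors' normalized values (0.0456). Smarca1 was not tested, at 0 to 0.167 CPM.

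Among CHD remodeller genes 1 of 11 rose and 4 fell (median log2 fold change -0.05). The share called, 45.5%, is near the 49.3% called among all genes at 10 CPM or more (25.9% higher, 23.4% lower). Chd4, the ATPase of NuRD and the most counted member, was at 568 ± 13.4 CPM in producers and 575 ± 10.04 CPM in negative cells and did not pass (log2 fold change -0.02, SE 0.020, adjusted p = 0.551). Its relative Chd3 was at 288 ± 5.75 CPM in producers against 307 ± 3.08 CPM in negative cells (log2 fold change -0.09, SE 0.021, adjusted p = 0.00107), and it was lost with the GC and length correction (adjusted p = 0.139). Chd1l (ENSMUSG00000028089.5, chromosome 3, 97560742 to 97610203), which acts in DNA repair, had 22.04, 23.9 and 22.9 CPM in IL-10-producing libraries, against 26.5, 27.3 and 26.4 CPM in IL-10-negative libraries (log2 fold change -0.22, SE 0.048, adjusted p = 7.83e-04). Chd2 (ENSMUSG00000078671.11, chromosome 7, 73426638 to 73541830) had 171, 176 and 169.9 CPM in IL-10-producing libraries, against 189, 187 and 186 CPM in IL-10-negative libraries (log2 fold change -0.12, SE 0.022, adjusted p = 1.24e-04). Chd6 (ENSMUSG00000057133.14, chromosome 2, 160946978 to 161109075) had 46.1, 42.6 and 44.4 CPM in IL-10-producing libraries, against 49.3, 51.9 and 49.6 CPM in IL-10-negative libraries (log2 fold change -0.18, SE 0.038, adjusted p = 4.77e-04). In each of these genes the groups did not overlap. Chd7 was at 89.5 ± 3.15 CPM in producers against 84.7 ± 1.202 CPM in negative cells and rose (log2 fold change 0.08, SE 0.030, adjusted p = 0.0348). It was lost when library size alone scaled the counts (adjusted p = 0.192) and without IL-10-producing replicate 2 (adjusted p = 0.236), IL-10-negative replicate 1 (0.111) or IL-10-negative replicate 2 (0.0888). Chd1, Chd5, Chd8, Chd9 and Chd3os did not pass. The groups did not overlap in Chd8 (log2 fold change -0.05) and Chd9 (-0.05), and both were called lower with library size only (adjusted p = 0.00411 and 0.0180), where 0 CHD genes rose and 6 fell.

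Ratios of counts within a library do not depend on library scaling, and several pairs of paralogs or opposed enzymes shifted. The pairs were chosen after their values had been seen, so the ratios are a description with no test. Ezh2 over Ezh1 was 3.77, 3.65 and 3.80 in IL-10-producing libraries, against 2.64, 2.97 and 2.86 in IL-10-negative libraries, and the groups did not overlap. Smarca4 over Smarca2 was 2.77, 2.79 and 2.72 in IL-10-producing libraries, against 2.12, 2.24 and 2.16 in IL-10-negative libraries. Smarca5 over Smarca2 was 2.22, 2.16 and 2.18 in IL-10-producing libraries, against 1.52, 1.64 and 1.52 in IL-10-negative libraries. These ratios of ATPases stood 1.27-fold and 1.40-fold higher in IL-10-producing libraries, without overlap. Ezh2 over its opponent Kdm6a was 4.01, 4.13 and 4.34 in IL-10-producing libraries, against 3.11, 3.27 and 2.95 in IL-10-negative libraries. Kdm5c over Kdm5b was 3.94, 3.58 and 3.50 in IL-10-producing libraries, against 2.63, 2.73 and 2.97 in IL-10-negative libraries, and Ep300 over Crebbp 2.12, 2.11 and 2.14 in IL-10-producing libraries, against 1.90, 1.93 and 1.90 in IL-10-negative libraries. Those ratios were higher in all IL-10-producing libraries, by 1.34-fold, 1.32-fold and 1.11-fold in the mean. Dnmt1 over Dnmt3a averaged 8.16 ± 0.129 in producers and 7.04 ± 0.176 in negative cells, and Tet1 over Tet2 0.111 ± 0.00713 in producers and 0.0669 ± 0.0170 in negative cells.

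**Figure D3:**
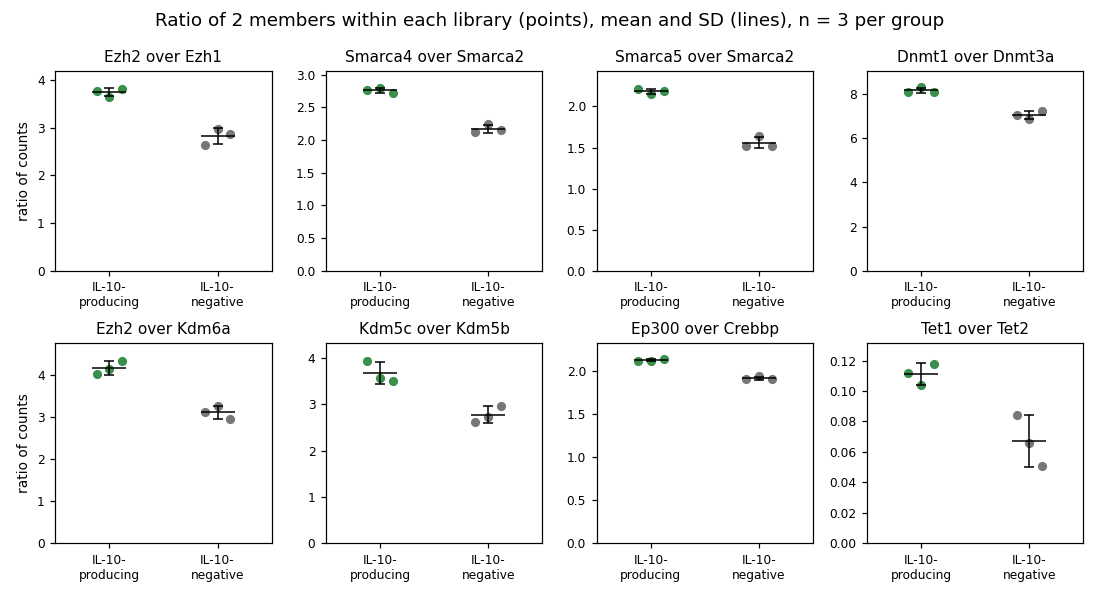
Ratio of the counts of 2 members (vertical axis from 0) within each IL-10-producing (left, green) and IL-10-negative (right, grey) library, with mean and SD over 3 libraries per group. In all 8 pairs the IL-10-producing libraries lie above the IL-10-negative ones, and the pair Ezh2 over Ezh1 stands at 3.65 to 3.80 in producers against 2.64 to 2.97 in negative cells.

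The members that fell have long transcripts. Their longest annotated transcript had a median of 7.29 kb, against 4.50 kb for the members that rose, 3.89 kb for those not past the threshold and 2.91 kb over all genes tested. Of 24 tested members with 8 kb or more, 3 rose and 13 fell (median log2 fold change -0.09), and over all 741 genes of that length 18.4% rose and 30.1% fell (median -0.04). Of 15 members from 6 kb to under 8 kb, 1 rose and 7 fell (median -0.06), where 24.1% of all genes rose and 26.0% fell (median -0.0065). Of 28 members from 4 kb to under 6 kb, 6 rose and 7 fell, where 18.6% of all genes rose and 24.5% fell. Of 36 members from 2 kb to under 4 kb, 6 rose and 2 fell, where 17.8% of all genes rose and 18.9% fell, and of 4 members under 2 kb 0 rose and 1 fell, where 13.5% of all genes rose and 11.5% fell. With smooth terms for GC content and length taken out per library, 48.9% of the called members were higher, against 51.0% of all called genes, where TMM alone gave 34.8% and 47.8%. The correction left 8 of the 9 lower demethylase genes and 6 of the 9 lower lysine methyltransferase genes past the threshold, and all calls of PRC2 and DNA methylation genes. Median GC content of the longest transcripts was 48.4% for the members that rose, 51.2% for those that fell and 49.5% over all genes tested. GC content and length were corrected for together, so their parts cannot be told apart. Whether either plays a part in the differences was not tested.

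**Figure D4:**
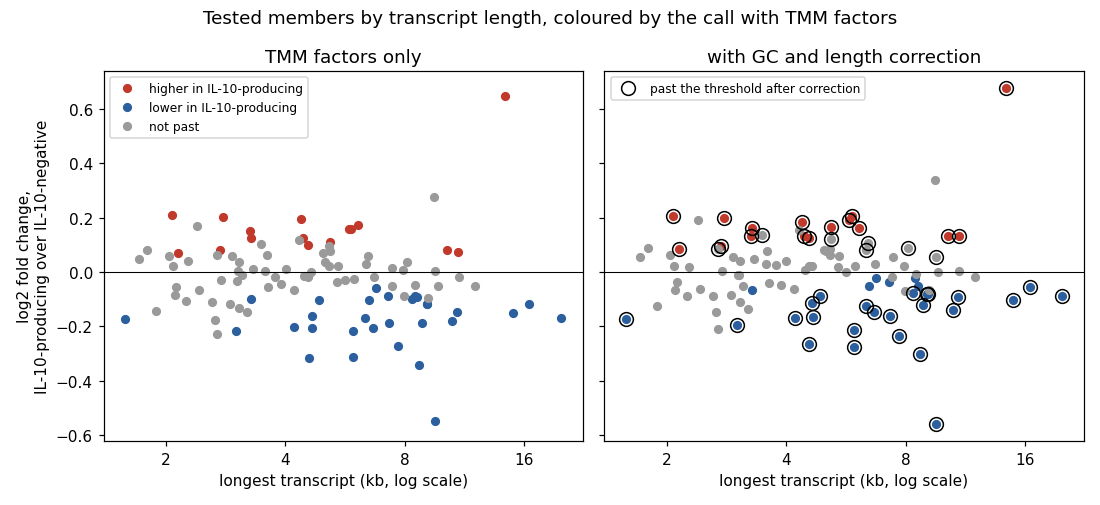
Log2 fold change of the 107 tested members (vertical axis, IL-10-producing over IL-10-negative) against the length of the longest transcript (horizontal axis, kb, log scale), with TMM factors only (left) and with the GC and length correction (right). Colours give the call with TMM factors in both panels and rings mark the 47 members past the threshold after the correction, of which 23 were higher and 24 lower.

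Partner genes that work in the same complexes, 172 tested in 9 lists that exclude the members, changed in both directions, 44 higher and 46 lower (52.3% called, median log2 fold change 0.00034). Their median level was 74.3 CPM. Among all genes at 10 CPM or more 49.3% were called, 25.9% higher and 23.4% lower, so the partners' total share is near the background. Histone chaperones rose most often, with 13 of 18 higher and 1 lower (median 0.14), and Nap1l1 stood at 164 ± 2.29 CPM in producers against 132 ± 3.73 CPM in negative cells and Npm1 at 353 ± 6.35 CPM in producers against 306 ± 2.02 CPM in negative cells. Proliferation markers rose in the same libraries, as given above. In the list of other lysine methyltransferases and heterochromatin 7 of 21 rose and 4 fell. There Cbx5 and Cbx3, heterochromatin proteins of the HP1 family, both rose, Cbx5 at 377 ± 7.34 CPM in producers and 297 ± 2.35 CPM in negative cells, and Cbx3 at 146 ± 2.59 CPM in producers and 123 ± 2.42 CPM in negative cells. Polycomb partners went both ways (8 of 29 higher, 13 lower), with Asxl1 at 324 ± 2.46 CPM in producers against 272 ± 5.68 CPM in negative cells and Phf1 at 18.8 ± 0.537 CPM in producers against 29.5 ± 0.360 CPM in negative cells.

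Of 15 partners and readers of DNA methylation 4 rose and 6 fell. Hells, a remodeller needed for DNA methylation, rose to 138 ± 2.74 CPM in producers, against 110 ± 2.72 CPM in negative cells, while the methyl-CpG reader Zbtb4 fell to 32.3 ± 1.07 CPM in producers, against 46.1 ± 1.01 CPM in negative cells. Among the non-catalytic COMPASS partners 4 of 11 rose and 0 fell in edgeR's test (1 was lower at an unadjusted p under 0.05, and 0 by DESeq2 or limma-voom), with Hcfc1 at 510 ± 6.36 CPM in producers against 458 ± 7.99 CPM in negative cells and Psip1 at 151 ± 2.67 CPM in producers against 132 ± 2.60 CPM in negative cells. Acetyltransferase partners had 1 of 28 higher and 9 lower, with the coactivator Ncoa3 at 318 ± 6.49 CPM in producers against 375 ± 7.11 CPM in negative cells and Jade2 at 66.5 ± 0.989 CPM in producers against 80.9 ± 2.04 CPM in negative cells. In corepressor and NuRD partners 2 of 18 rose and 5 fell, with Sap30 at 19.7 ± 0.592 CPM in producers against 16.04 ± 0.382 CPM in negative cells and Ncor1 at 482 ± 4.63 CPM in producers against 525 ± 5.05 CPM in negative cells. SWI/SNF partners had 2 of 14 higher and 4 lower, with Actl6a at 98.0 ± 0.567 CPM in producers against 88.8 ± 1.49 CPM in negative cells and Arid1b at 105 ± 4.67 CPM in producers against 121 ± 0.818 CPM in negative cells. ISWI and INO80 partners had 3 of 18 higher and 4 lower, with Baz1b at 475 ± 8.56 CPM in producers against 434 ± 7.09 CPM in negative cells and Actr8 at 25.7 ± 1.56 CPM in producers against 29.4 ± 1.32 CPM in negative cells (SD, n = 3 in each group; all named partners past an adjusted p of 0.05 in edgeR's test).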

How the data were processed

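RNA of 3 IL-10-producing and 3 IL-10-negative libraries was analysed. The submitters' processing notes name Partek, STAR 2.5.3a, bcl2fastq 2.17.1.14 and build mm10; the annotation release and strand setting are not given in the sources used here. The authors deposited estimated counts per gene (50.4% of values not whole) and a second table of normalized signal, equal to the estimated count plus 1 times a factor per library, for 13824 genes.

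Estimated counts were rounded and tested on the whole table with edgeR 4.0.16 in R 4.3.3 (glmQLFit and glmQLFTest, TMM factors, filterByExpr with minimum count 10 and total 15, group as the only term), which kept 16654 genes. Adjusted p-values are Benjamini-Hochberg values over all these genes. Standard errors come from the F statistic. A positive log2 fold change means higher in IL-10-producing cells. The test was checked on simulated counts. Replicates differed from each other by 2.39 to 2.95 times what Poisson sampling gives (median gene), so none was a copy. Replicate numbers did not pair libraries (correlations of deviations between -0.04 and 0.03). Positions are 1-based, from the deposited table on mm10. All 19917 identifiers with the same version in GENCODE M21 had the same coordinates there once 1 was taken from the stop, and lengths and GC content are of its longest transcripts.

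Members, roles, partner lists and markers were chosen with earlier results of these data known. The count table had 174 of 176 partner genes and 82 of 90 marker genes. Values in every library are given for the genes named outright in the rule on DNA methylation, PRC2 and Ep300/Crebbp, for the 3 members of each role with the smallest p that passed, and for members that passed with a change of 1.5-fold and 1 CPM or more; of each partner list the 2 with the smallest p are named. Alternatives were other scalings, filters, DESeq2 1.42.0, limma-voom and limma 3.58.1 on log2 of the normalized signal plus 1, a replicate block, a 1.2-fold test, a GC and length correction (mgcv 1.9.3) and leaving out each library. The result of 1 member, counted in the totals, is not reported here.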

Additional observations from a re-analysis of the deposited data

How the results depend on the processing

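With library size only, 8 members rose (16 with TMM) and the members' median log2 fold change was -0.059, and with the GC and length correction that median was 0.00039. These scalings moved the share of rises among called members from 34.8% to 17.0% and 48.9%, and among all called genes from 47.8% to 36.8% and 51.0%. Among partner genes the rises and falls were 44 and 46 with TMM, 36 and 59 with library size only and 57 and 38 with the correction. In the test against a 1.2-fold change 1 member rose and 1 fell, and 1 partner gene rose and 4 fell. Of all genes tested 7.91% passed it. This test asks for a larger change by its construction. For the other differences the cause was not tested. Leaving out 1 library gave 11 to 14 members higher and 27 to 31 lower, a median of -0.031 to -0.016, and 41 to 44 partner genes higher and 39 to 42 lower. With the replicate block 16 members rose and 30 fell, with Prmt1 lost (adjusted p = 0.0663) and Kdm2b gained. DESeq2 size factors, both filters, DESeq2, limma-voom and the normalized signal gave 15 to 18 members higher and 29 to 31 lower. Of 11 tested members under 10 CPM in the higher group 1 passed. The share called was 35.7% over all genes tested and 49.3% among all genes at 10 CPM or more. Neither is a share of genes under 10 CPM, so neither is a matched background for these 11 members. Whether depth limits members of low level was not tested.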
